A study of Mus musculus with 6 samples.

Results

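Neuronal and synaptic transcripts were examined in RNA from sorted microglia, the resident macrophages of the brain. The set holds 38 genes, chosen by symbol as pan-neuronal, synaptic vesicle, transmitter and cytoskeletal genes, out of 24956 genes in the deposited count table. All 38 were found in the table. The rule names genes by their known role, but the set was chosen with earlier results of these data known.

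The mice, aged 7 months, were 3XTg-AD, a strain known to carry mutant human APP and MAPT transgenes among its alleles. Both of these transgenes are known to be driven by the neuronal Thy1.2 cassette. Over 4 weeks, at intervals of 4 days, they were given 25 µg of anti-NK1.1, an antibody that depletes natural killer (NK) cells, or of its isotype control. There were 3 libraries per group, all 6 carried the 3XTg-AD alleles, and the labels do not say whether a library is 1 mouse or a pool, so p-values measure the spread between these libraries. The comparison asks how RNA of the sorted microglia differs when NK cells are depleted.

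Neurons release transmitter when calcium triggers the fusion of synaptic vesicles, and receptors anchored in the postsynaptic density read the signal. Glutamate neurons load vesicles with Slc17a7 or Slc17a6, while GABA neurons make transmitter with Gad1 and Gad2 and load it with Slc32a1. Long processes are held by neurofilaments and by tubulin with its binding proteins. Microglia touch, prune and engulf synapses and neurons, and the transcription factor REST silences many neuronal genes outside neurons.

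The libraries held 26.9 to 36.1 M gene counts, and 3 counts in a library corresponded to 0.0784 to 0.120 CPM. CPM values are counts divided by library size, after adjusting that size by the TMM method (trimmed mean of M values). Microglial transcripts were abundant in every library: the summed level of 10 microglial markers, among them P2ry12, Tmem119 and Cx3cr1, was 31331 to 35845 CPM in isotype and 27306 to 35979 CPM under anti-NK1.1. Of the 10 markers, 3 had a higher and 7 a lower estimate under anti-NK1.1. P2ry12 was lower without overlap, with 5058, 4557 and 5010 CPM against 2694, 4384 and 2683 CPM, and had an edgeR adjusted p of 0.727. Olfml3 was higher without overlap, with 1494, 1706 and 1605 CPM against 2224, 1889 and 1942 CPM. Of all tested genes, 7.59% were lower and 7.73% higher without overlap. Neutrophil transcripts were abundant too: 12 neutrophil genes summed to 102201, 80460 and 74477 CPM in isotype and 32555, 33183 and 142013 CPM under anti-NK1.1. The libraries also differed in how the level depended on transcript length across the tested genes. The rank correlation of each gene's deviation from its mean with length was -0.010, 0.042 and 0.35 in isotype 1 to 3 and -0.17, 0.27 and -0.34 in anti-NK1.1 1 to 3, given as a description across genes that are not independent.

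Neuronal transcripts made up a small part of every library and a larger part of each anti-NK1.1 library. The 38 genes took 0.0334%, 0.0275% and 0.0398% of gene counts in isotype 1 to 3 and 0.130%, 0.0705% and 0.0697% in anti-NK1.1 1 to 3. Their summed level was 337, 271 and 374 CPM in the isotype libraries and 1315, 645 and 808 CPM in the anti-NK1.1 libraries, so that the groups did not overlap. The means were 327 ± 51.9 CPM and 923 ± 349 CPM (SD, n = 3 each), a ratio of 2.82. The ratio was 2.22 without anti-NK1.1 1, the library with the highest sum, and 2.60 to 3.24 without any other single library. In bulk RNA, more cells of a type and more RNA per cell cannot be told apart.

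Of the 38 genes, 37 passed edgeR's filter on low counts, and all 37 had a higher estimate in anti-NK1.1 libraries, as did 50.9% of all 14520 tested genes. Slc17a6, which did not pass, was lower when no filter was applied, so 37 of 38 were higher there. The median log2 change of the 37 was 1.52, against 0.01 for all tested genes, and single values ran from 0.19 for Vamp2 to 3.71 for Gabrd. For 23 genes every anti-NK1.1 library lay above every isotype library, which held for 7.73% of tested genes. The reverse order held for 0 of the set and 7.59% of tested genes.

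No gene passed the edgeR quasi-likelihood test at a Benjamini-Hochberg adjusted p under 0.05. The test called 0 of the 37 and 0% of all tested genes, and the adjusted p of the 37 ran from 0.607 to 0.925. Without anti-NK1.1 2 it called 129 genes of the table and 0 of the set, and limma-voom on all 6 libraries called 4 genes and 0 of the set. At an unadjusted p under 0.05, 21 of the 37 were higher and 0 lower, beside 2.74% of all tested genes in the higher direction and 3.80% in the lower. That count was 12 without isotype 2, beside 3.37% of all tested genes, and also 12 without anti-NK1.1 1, beside 1.39%. DESeq2 on the same counts called 8 of the 37, all higher: Gabrd, Chgb, Meg3, Slc17a7, Snhg11, Stmn3, Grin2b and Nefm. Among all genes with a DESeq2 adjusted p, 0.332% were called higher and 0.242% lower. DESeq2 called 1 of the set without anti-NK1.1 1 (Gabrd), 4 without isotype 1 and 5 without isotype 2. It called 6 without anti-NK1.1 3, 11 without isotype 3 and 15 without anti-NK1.1 2. In the same fits and order, 13, 22, 17, 19, 27 and 23 of the set were higher at an unadjusted DESeq2 p under 0.05. The shares of all tested genes higher at that unadjusted p were 1.95%, 4.73%, 5.59%, 3.38%, 5.09% and 7.26%. These shares are not at the adjusted threshold of the calls. The fit with 15 calls was also the one that called most genes of the whole table.

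**Figure D1:**
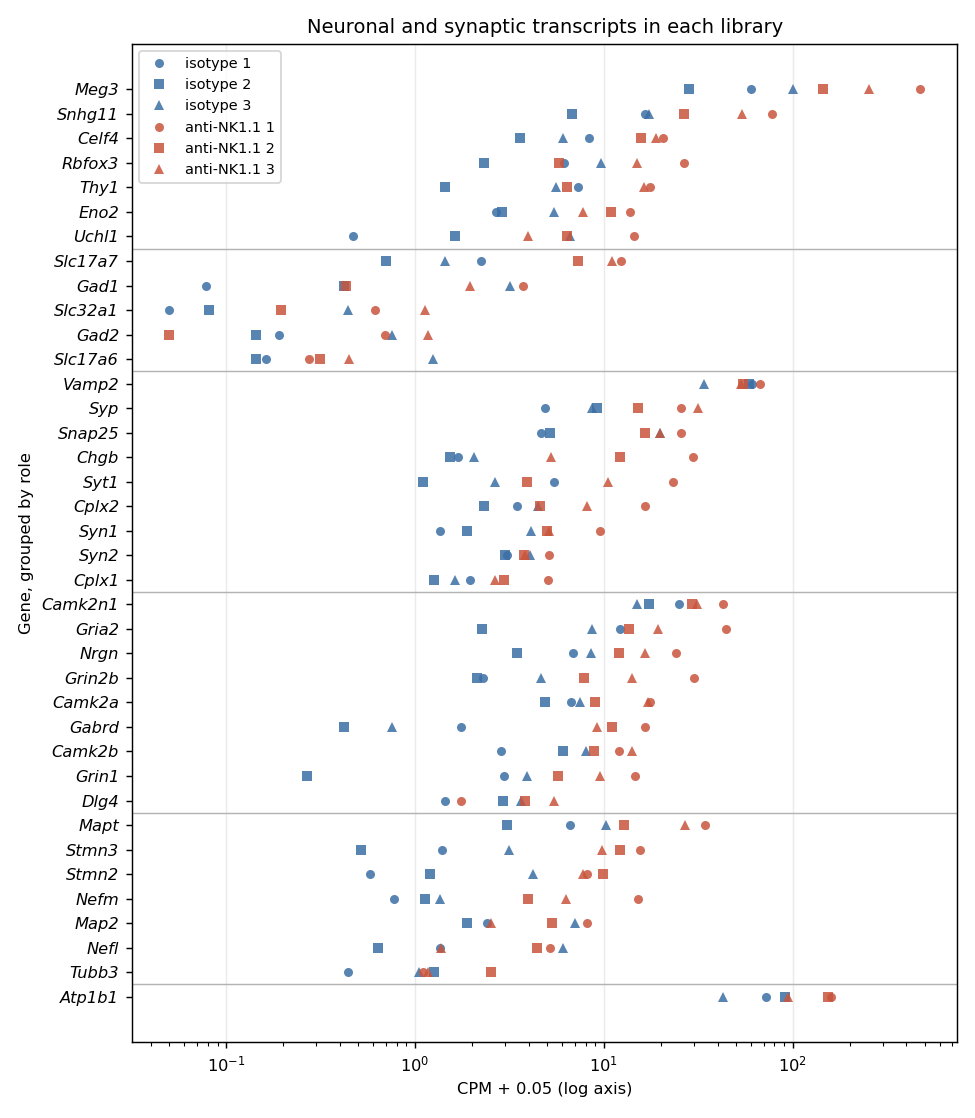
Level of each of the 38 genes (rows, grouped by role) in each of the 6 libraries, as CPM + 0.05 on a log axis, where 0.05 keeps the 2 values of 0 on the axis. Blue symbols are isotype and red symbols anti-NK1.1 libraries. For Meg3 the red symbols run from 144 to 471 CPM and the blue ones from 28.3 to 100.2 CPM, while for Vamp2, Syn2 and the GABA genes the colours mix.

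The general neuronal markers with the largest log2 changes were Meg3 and Snhg11. Meg3, an imprinted long noncoding RNA abundant in neurons (chromosome 12, 109541001 to 109571726, GRCm38), had 59.9, 28.3 and 100.2 CPM in isotype 1 to 3 and 471, 144 and 253 CPM in anti-NK1.1 1 to 3. The lowest anti-NK1.1 library was above the highest isotype library, and the 3 anti-NK1.1 values spread over a wide range. The edgeR log2 change was 2.202 ± 0.52 (SE), with an adjusted p of 0.714, and the DESeq2 adjusted p was 0.00161. Meg3 alone supplied 10.4% to 26.8% of the summed level in isotype and 22.3% to 35.8% in anti-NK1.1 libraries. Without Meg3 the sum was 277, 243 and 274 CPM against 843, 501 and 556 CPM, and the groups still did not overlap.

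Snhg11, a host gene of small nucleolar RNAs that is enriched in neurons and is annotated as protein-coding in GENCODE, had 16.5, 6.76 and 17.3 CPM in isotype and 77.2, 26.5 and 53.5 CPM under anti-NK1.1. Its log2 change was 1.95 ± 0.49 (DESeq2 adjusted p = 0.0201), and Meg3 and Snhg11 shared the order of the libraries, with anti-NK1.1 1 highest and isotype 2 lowest. Celf4, an RNA-binding protein of neurons, had 8.31, 3.53 and 6.01 CPM against 20.5, 15.6 and 18.8 CPM. These 3 anti-NK1.1 values lay close together, with a log2 change of 1.62 ± 0.47. Eno2, the neuronal enolase of glycolysis, had 2.62, 2.85 and 5.41 CPM against 13.7, 10.8 and 7.73 CPM, again without overlap.

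Rbfox3, the splicing factor known as NeuN, had 6.08, 2.26 and 9.64 CPM in isotype and 26.4, 5.72 and 14.9 CPM under anti-NK1.1. Here anti-NK1.1 2 lay inside the isotype range, and the log2 change was 1.39 ± 0.69. Uchl1, a ubiquitin hydrolase abundant in neurons, overlapped too, with 0.418, 1.58 and 6.53 CPM against 14.4, 6.34 and 3.91 CPM. Thy1, a surface glycoprotein of neurons and T cells, had 7.20, 1.40 and 5.54 CPM against 17.6, 6.34 and 16.3 CPM, with anti-NK1.1 2 inside the isotype range. Gene counts do not separate reads of a Thy1.2 transgene cassette from reads of Thy1 itself, and the part of such reads was not tested.

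Among the genes of transmitter identity, Slc17a7 was the one whose groups did not overlap. Slc17a7, the vesicular glutamate transporter of cortical and hippocampal neurons (chromosome 7, 45163949 to 45176142), had 2.18, 0.651 and 1.38 CPM in isotype and 12.2, 7.24 and 11.0 CPM under anti-NK1.1. All 3 anti-NK1.1 libraries exceeded the highest isotype library, with a ratio of means of 7.22 and a log2 change of 2.85 ± 0.69 (DESeq2 adjusted p = 0.0121). Slc17a6, the transporter of subcortical glutamate neurons, had 4, 3 and 46 counts in isotype and 6, 9 and 10 counts in anti-NK1.1 libraries. Its mean was 0.469 CPM in isotype and 0.296 CPM under anti-NK1.1, against the direction of the other genes. The isotype mean rested on isotype 3, its highest library, which was also the highest for Nefl.

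The GABA genes were scarce and their groups overlapped. Gad1, which makes GABA from glutamate, had 1, 12 and 120 counts in isotype and 98, 13 and 48 counts in anti-NK1.1 libraries, so that isotype 3 was above every anti-NK1.1 library in counts. In CPM that order changed, where anti-NK1.1 1 stood at 3.69 CPM and isotype 3 at 3.14 CPM. Gad2, the second such enzyme, had 5, 3 and 27 counts against 17, 0 and 28, and Slc32a1, the vesicular GABA transporter, had 0, 1 and 15 counts against 15, 5 and 27. The log2 changes were 0.75 ± 1.52 for Gad1, 0.89 ± 1.73 for Gad2 and 2.04 ± 1.76 for Slc32a1, each with an SE near or above its own size. No difference was detectable for these 3 genes, whose counts varied widely within each group. Whether Slc17a7 differed from the GABA genes in its change was not tested.

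Vesicle and release genes had 5 of 9 members higher without overlap, beside 7.73% of all tested genes. Chgb, a granin of dense-core vesicles (chromosome 2, 132781278 to 132795079), had 1.65, 1.49 and 2.01 CPM in isotype and 29.7, 12.1 and 5.22 CPM under anti-NK1.1. The isotype values were tightly grouped and the anti-NK1.1 values were not, with a log2 change of 3.19 ± 0.70 (DESeq2 adjusted p = 0.00161). Syp, the vesicle membrane protein synaptophysin, had 4.80, 9.15 and 8.65 CPM against 25.6, 15.0 and 31.2 CPM, and here anti-NK1.1 3 was highest. Its log2 change was 1.67 ± 0.45.

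Syn1 and Cplx2 did not overlap either. Syn1, the vesicle phosphoprotein synapsin, had 1.31, 1.83 and 4.08 CPM against 9.44, 4.94 and 5.06 CPM. Its relative Syn2 overlapped, with 2.95 to 4.02 CPM in isotype and 3.71 to 5.08 CPM under anti-NK1.1. Complexins clamp and promote vesicle fusion: Cplx2 had 3.43, 2.26 and 4.42 CPM against 16.4, 4.56 and 8.05 CPM. Cplx1 had 1.90, 1.21 and 1.57 CPM against 5.004, 2.89 and 2.59 CPM. The margin between the groups was narrow for Cplx2, where anti-NK1.1 2 exceeded isotype 3 by a small amount.

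The core fusion genes were less separated. Syt1, the calcium sensor of release, had 5.41, 1.05 and 2.61 CPM in isotype and 23.2, 3.88 and 10.4 CPM under anti-NK1.1, with anti-NK1.1 2 inside the isotype range. Snap25, a SNARE protein of the presynaptic membrane, had 4.60, 5.12 and 19.8 CPM against 25.7, 16.5 and 19.8 CPM, and isotype 3 reached the anti-NK1.1 range. Vamp2, the vesicle SNARE, had 60.4, 58.9 and 33.9 CPM against 67.2, 54.4 and 53.2 CPM. It had the smallest estimate of the 37, at 0.19 ± 0.29 on the log2 scale, and the groups overlapped.

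Promoter sequence was read for the set because its members lay higher together. RefSeq promoters on GRCm38.p6, from 250 bases before to 50 after the start, matched 26 of the 38 genes. Searched on both strands were the left part of the REST element, TTCAGCACC, and the palindromic cyclic AMP response element, TGACGTCA, with no match of one inside a match of the other. The REST part was in 0.371% of all 32851 promoters, or 0.433% of the 27025 genes they belong to, and in 1 of the 26 matched genes of the set, Syn1. The cyclic AMP element was in 1.79% of promoters, or 2.03% of genes, and in 3 of the 26, Chgb, Meg3 and Syn1. Shown are stretches before the RefSeq start with the match in capitals, on the strand of the gene: Syn1 at chrX:20921082-20921168 (minus strand), Chgb at chr2:132781510-132781637 (plus strand) and Meg3 at chr12:109540879-109540995 (plus strand).
Syn1, REST left part: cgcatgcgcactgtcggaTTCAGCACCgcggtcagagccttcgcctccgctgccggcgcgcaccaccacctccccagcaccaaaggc
Chgb, cyclic AMP element: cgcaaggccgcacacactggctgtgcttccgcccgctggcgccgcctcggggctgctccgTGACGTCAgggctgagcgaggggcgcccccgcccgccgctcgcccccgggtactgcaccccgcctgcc
Meg3, cyclic AMP element: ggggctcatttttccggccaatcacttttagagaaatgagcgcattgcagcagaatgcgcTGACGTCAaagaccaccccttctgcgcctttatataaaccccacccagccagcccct
A match describes these letters only. Chgb and Meg3, which hold the cyclic AMP element, were among the 8 genes that DESeq2 called, and no match was found for the other called genes. Only 26 of the 38 genes had a promoter to search, so a gene without a match may not have been searched. Syn1, which holds both kinds of match, was not called (DESeq2 adjusted p = 0.551). Its groups did not overlap, with an edgeR log2 change of 1.43 ± 0.74. Whether a match goes with the change of a gene was not tested.

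Receptor and postsynaptic genes were the role with most members apart, 8 of 9, beside 7.73% of all tested genes higher without overlap. Gabrd, the delta subunit of extrasynaptic GABA receptors that is prominent in granule cells (chromosome 4, 155384980 to 155398112), had 1.70, 0.372 and 0.705 CPM in isotype and 16.4, 11.0 and 9.13 CPM under anti-NK1.1. This was the widest separation of the set, with a ratio of means of 13.2, a log2 change of 3.71 ± 0.74 and a DESeq2 adjusted p of 0.000180. Grin2b, an NMDA receptor subunit (chromosome 6, 135713233 to 136173511), had 2.23, 2.08 and 4.57 CPM against 29.8, 7.83 and 14.0 CPM, a log2 change of 2.53 ± 0.64. Its obligatory partner Grin1 had 2.90, 0.217 and 3.87 CPM against 14.5, 5.69 and 9.53 CPM. Gria2, the AMPA receptor subunit that limits calcium entry, had 12.1, 2.201 and 8.65 CPM against 44.2, 13.5 and 19.3 CPM. In Grin1, Gria2 and Grin2b alike, anti-NK1.1 1 was highest and isotype 2 lowest.

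The calcium and calmodulin genes of the postsynapse differed by less. Nrgn, which binds calmodulin in dendritic spines, had 6.78, 3.41 and 8.46 CPM in isotype and 24.0, 11.9 and 16.4 CPM under anti-NK1.1. For the kinase subunit Camk2a the values were 6.64, 4.84 and 7.42 CPM against 17.4, 8.97 and 17.0 CPM. For Camk2b they were 2.82, 6.01 and 7.97 CPM against 12.04, 8.76 and 13.9 CPM. Camk2n1, an inhibitor of that kinase, had 24.9, 17.2 and 14.9 CPM against 42.7, 29.3 and 30.9 CPM. None of these 4 genes overlapped between groups, and their log2 changes were 1.49 ± 0.51, 1.20 ± 0.48, 1.05 ± 0.55 and 0.85 ± 0.34. Dlg4, the scaffold PSD-95, overlapped, with 1.39, 2.88 and 3.61 CPM against 1.69, 3.77 and 5.38 CPM.

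Cytoskeletal genes gave both large and small values. Stmn3, a tubulin-binding stathmin of neurons (chromosome 2, 181306459 to 181314500), had 1.34, 0.465 and 3.11 CPM in isotype and 15.5, 12.1 and 9.76 CPM under anti-NK1.1. Its log2 change was 2.92 ± 0.75 (DESeq2 adjusted p = 0.0201). Stmn2, a growth-cone stathmin, had 0.530, 1.15 and 4.18 CPM against 8.13, 9.87 and 7.73 CPM, with anti-NK1.1 2 highest. Nefm, the medium neurofilament subunit, had 0.725, 1.09 and 1.31 CPM against 15.1, 3.91 and 6.26 CPM, a log2 change of 3.01 ± 0.78 (DESeq2 adjusted p = 0.0215). The light subunit Nefl had 1.31, 0.589 and 6.04 CPM against 5.15, 4.38 and 1.32 CPM, and its highest library was isotype 3. Exons of Nefl and Nefm overlap on opposite strands in the GENCODE annotation, so unstranded reads there cannot be assigned to either gene.

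Mapt, which encodes tau (chromosome 11, 104231390 to 104332090), had 6.56, 3.01 and 10.2 CPM in isotype and 34.4, 12.7 and 26.7 CPM under anti-NK1.1. The groups did not overlap, and the log2 change was 1.90 ± 0.56 (DESeq2 adjusted p = 0.0907). Reads of the human MAPT transgene that align to the mouse gene would be counted here, and their part was not tested. Map2, the dendritic microtubule protein, overlapped with 2.34, 1.83 and 7.00 CPM against 8.05, 5.23 and 2.47 CPM, as did Tubb3, the neuronal beta-tubulin, with 0.391, 1.21 and 0.993 CPM against 1.05, 2.48 and 1.12 CPM. Atp1b1, the beta subunit of the sodium-potassium pump that other cells also express, had 71.9, 91.0 and 42.5 CPM against 159, 153 and 94.7 CPM. Its groups were separated by a narrow margin, between anti-NK1.1 3 and isotype 2, with a log2 change of 0.98 ± 0.33.

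**Figure D2:**
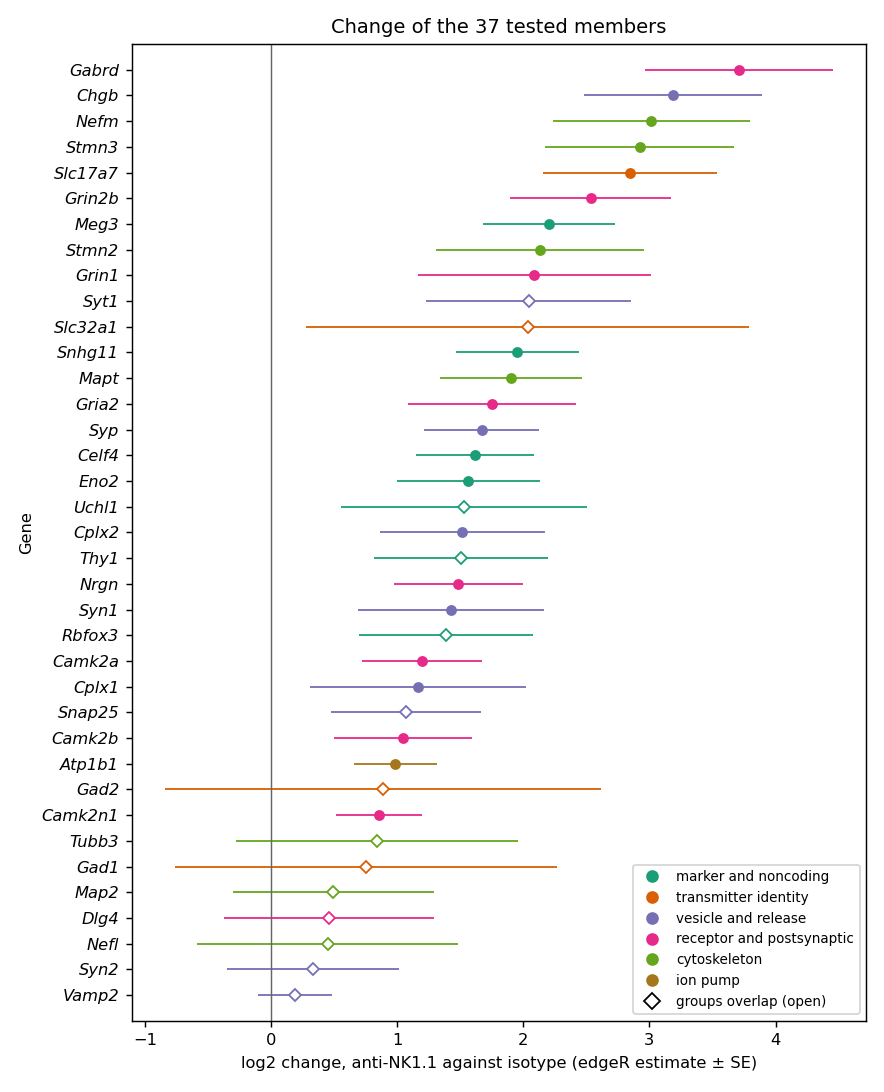
log2 change of the 37 tested genes (anti-NK1.1 against isotype, edgeR estimate) with its SE as a bar, ordered by size and coloured by role. Filled circles mark the 23 genes whose groups do not overlap and open diamonds the others. Every estimate lies above 0, from 0.19 for Vamp2 to 3.71 for Gabrd, and the bars of Gad1, Gad2, Tubb3, Map2, Dlg4, Nefl, Syn2 and Vamp2 cross 0.

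The order of libraries was shared by much of the set. Anti-NK1.1 1 was the highest library for 29 of the 38 genes, against 22.1% of all tested genes, and anti-NK1.1 3 for 5. Isotype 2 was the lowest library for 22 of them, against 8.23% of all tested genes, and isotype 1 for 12. Isotype 3 was highest for 2, Slc17a6 and Nefl. Each anti-NK1.1 library taken alone exceeded all isotype libraries for 33, 25 and 29 of the 38 genes, in the order 1 to 3, where 32.5%, 26.0% and 30.6% of tested genes did.

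Levels were taken per kilobase of the longest transcript, protein-coding where there was one, the scale on which genes can be compared. They placed Atp1b1 at 26.5 and Vamp2 at 23.2 CPM per kb in isotype libraries. The next genes were Snap25, Meg3, Nrgn and Camk2n1 at 4.65 to 4.28 CPM per kb, and the lowest were Slc32a1 and Gad2 at 0.0504 and 0.0544 CPM per kb. In anti-NK1.1 libraries Atp1b1 stood at 52.5, Vamp2 at 26.4, Meg3 at 19.9, Nrgn at 11.996 and Stmn3 at 11.0 CPM per kb. Among the 37 tested genes, the 18 with transcripts longer than the median of the set had a median log2 change of 1.57 and the other 19 of 1.505. The transcripts of Grin2b, at 24060 nt, and Meg3, at 14548 nt, were the longest of the set. Both were highest in anti-NK1.1 1, as were 29 of the 38 genes. Across all tested genes, the rank correlation of deviation with length in that library was -0.17. Whether transcript length had a part in this order of libraries was not tested.

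Other neuronal genes, from 6 lists that share no gene with the set, lay higher in most cases. Of 148 tested genes, 126 were higher and 22 lower, with a median log2 change of 1.45. Their summed level had a ratio of means of 1.29, against 2.82 for the set. It was 1.17 for the vesicle release list, where anti-NK1.1 2 stood at 0.961 of the isotype mean, and 1.14 for the cytoskeleton and axon list. A sum is weighted by its most abundant genes, in these lists Basp1, Syngr1, Tuba4a and Sypl, with ratios of 1.12, 1.31, 0.763 and 0.803. For the set, the ratio was 2.40 without Meg3 and 3.22 without Meg3, Atp1b1, Vamp2 and Camk2n1. At an unadjusted p under 0.05, 41 of the 148 genes were higher and 2 lower, beside 2.74% and 3.80% of all tested genes. Of the 148, 62 were above isotype in every library without overlap, beside 7.73% of all tested genes. edgeR called 0 of the 148 and DESeq2 called 4, all higher, beside 0.332% of all genes with an adjusted p. The lists were chosen with earlier results of these data known.

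Regulators, peptides and noncoding RNAs had the highest median, 1.87, with 24 of 27 tested genes higher. At an unadjusted p under 0.05, 9 were higher, beside 2.74% of all tested genes. DESeq2 called 3 of the 27, all higher, beside 0.332% of all genes with an adjusted p. Myt1l, a neuronal transcription factor, had 5.02, 2.39 and 7.52 CPM in isotype and 46.6, 15.7 and 31.6 CPM under anti-NK1.1, a log2 change of 2.65 ± 0.56. Pcsk1n, an inhibitor of prohormone processing, had 4.07, 5.49 and 7.89 CPM against 29.7, 14.1 and 22.0 CPM, and the noncoding RNA Miat had a log2 change of 3.71 ± 1.02. Both of these were called by DESeq2, as was Myt1l.

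Receptors for glutamate and GABA had 17 of 22 tested genes higher (6 at an unadjusted p under 0.05), among them the AMPA subunit Gria1 at 2.26 ± 0.66 and the NMDA subunit Grin2c at 1.80 ± 0.66 on the log2 scale. Ion channels and pumps had 21 of 23 higher (7 at an unadjusted p under 0.05), with the calcium channel Cacna1e at 2.496 ± 0.72 and the potassium channel Kcnc1 at 1.99 ± 0.60. Vesicle release genes had 23 of 29 higher and 6 lower (5 and 1 at an unadjusted p under 0.05), with the calcium sensors Syt7 at 2.80 ± 0.82 and Syt4 at 2.52 ± 0.84 and the endocytic GTPase Dnm1 at 2.15 ± 0.69. The gene lower at that p was Nsf, the ATPase that takes SNARE complexes apart, with 47.3, 40.6 and 40.9 CPM against 21.2, 28.2 and 26.7 CPM. Beside these counts, 2.74% of all tested genes were higher and 3.80% lower at an unadjusted p under 0.05.

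Cytoskeleton and axon genes had 21 of 23 higher (8 at an unadjusted p under 0.05). DESeq2 called 1 of the 23, higher, beside 0.332% of all genes with an adjusted p. The list also held the microtubule protein Map1a at 1.57 ± 0.48 and the axonal motor Kif1a at 1.77 ± 0.57 on the log2 scale. Postsynaptic and dendritic genes had the lowest median, 1.03, with 20 of 24 higher (6 at an unadjusted p under 0.05, and 1 lower). Of all tested genes, 2.74% were higher and 3.80% lower at that p. The adhesion molecule Lrrtm1 had a log2 change of 3.27 ± 1.12, and the scaffold Shank1 had 2.01 ± 0.62. The gene lower at that p was the scaffold Homer1, with 16.7, 6.05 and 9.54 CPM against 3.24, 5.23 and 2.83 CPM, a log2 change of -1.51 ± 0.60. Nsf and Homer1 were named after their values were seen.

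**Figure D3:**
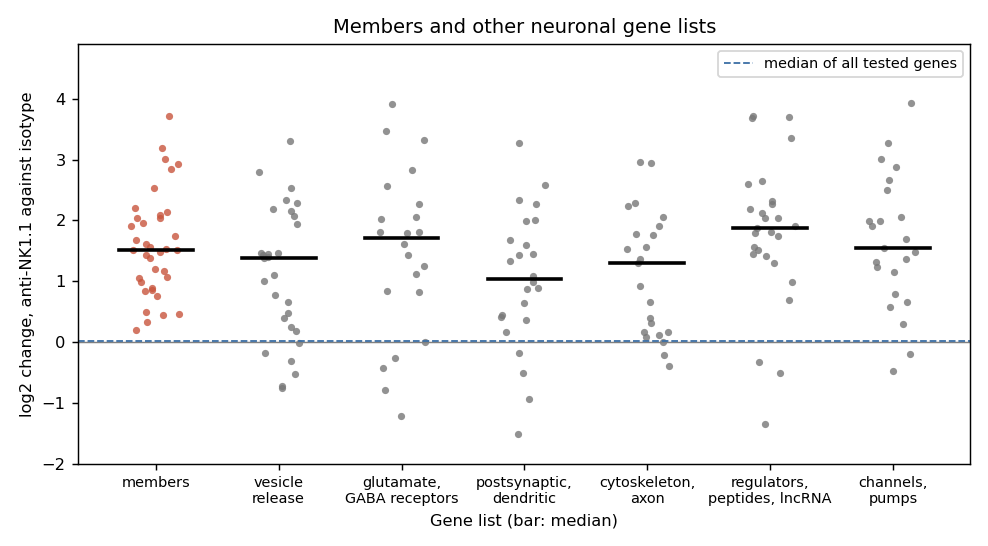
log2 change of each tested gene (points) in the set of members (red) and in 6 other neuronal lists (grey), with the median of each list as a black bar and the median of all tested genes as a dashed line at 0.01. The list medians lie between 1.03 and 1.87, and the grey lists hold 22 genes below 0 in all.

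Lists of other brain cell types also had higher sums in the anti-NK1.1 group. The oligodendrocyte-lineage list of 15 genes summed to 304, 378 and 416 CPM in isotype and 909, 930 and 790 CPM under anti-NK1.1, a ratio of means of 2.40, with all 14 tested genes higher. Mog, Opalin and Olig2 were at 0 in at least 1 library. Mbp had an edgeR adjusted p of 0.296, and no tested gene had a smaller one. Its DESeq2 adjusted p was 1.58e-07. The 15 astrocyte genes summed to 536 to 1087 CPM in isotype and 939 to 1690 CPM under anti-NK1.1, with 11 of 15 tested genes higher and Gfap at 0 in a library. The 12 endothelial and pericyte genes summed to 742 to 1383 CPM and 1542 to 2286 CPM, with 10 of 12 higher. Cdh5 and Kcnj8 were at 0 in a library. The 10 choroid plexus and ependyma genes summed to 8202 to 28594 CPM and 24219 to 42799 CPM, with all 10 higher and none at 0. In the order given here, 6 of 14, 4 of 15, 5 of 12 and 0 of 10 tested genes were higher without overlap. The reverse held for 1 endothelial and pericyte gene. Of all tested genes, 7.73% were higher and 7.59% lower without overlap. DESeq2 called 2, 2, 1 and 0 of these genes, all higher, beside 0.332% of all genes with an adjusted p. edgeR called 0 in each list.

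Relative to the isotype mean, the neuronal sum stood at 4.02, 1.97 and 2.47 in anti-NK1.1 1 to 3, and the oligodendrocyte sum at 2.49, 2.54 and 2.16. Anti-NK1.1 1 was thus highest for the neuronal set and anti-NK1.1 2 for the oligodendrocyte list. The microglial sum stood at 0.926, 1.08 and 0.817 and the sum of 12 neutrophil genes at 0.380, 0.387 and 1.66. The part that other cell types, or material from them, had in the neuronal values was not tested.

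**Figure D4:**
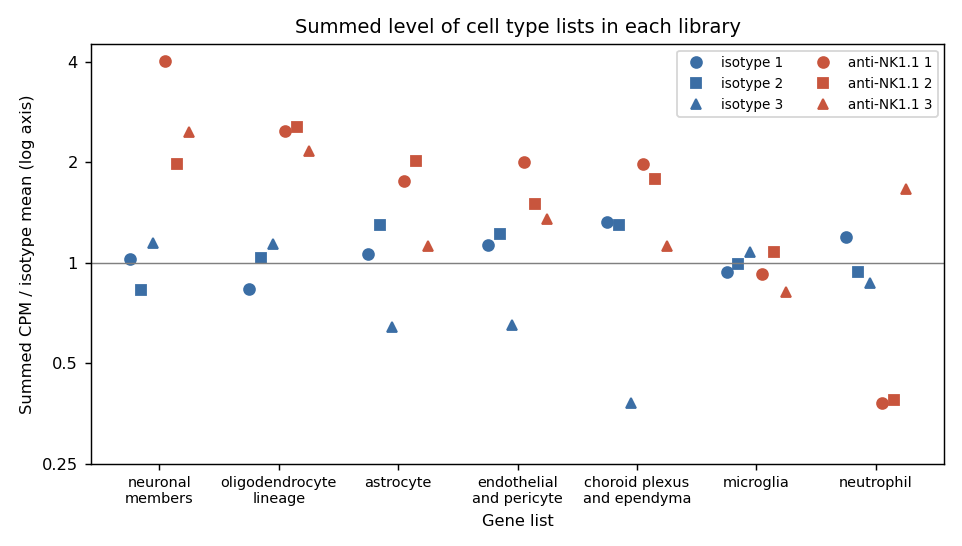
Summed CPM of each gene list divided by its isotype mean, on a log axis, for each library (blue isotype, red anti-NK1.1). The neuronal sum is 1.97 to 4.02 in anti-NK1.1 libraries and 0.829 to 1.14 in isotype libraries. The oligodendrocyte and endothelial lists are also separated, and the astrocyte and choroid plexus lists overlap between the groups.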

How the data were processed

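Although the file name says normalized, the deposited values are read counts: whole numbers with different totals per library and rows for reads in no feature (53.3% to 57.4% of reads) and ambiguous reads, both kept out of all tests. Per the submitters' processing notes the authors used the aligner STAR 2.5.3a, bcl2fastq 2.20.0.422, DESeq2 1.1, Cufflinks 2.0 and FastQC 1.0.0, with build mm10. Which program counted reads, on which annotation and with which strand setting, is not given in the sources used here. Per the labels, cDNA was made with SMART-seq v4 and libraries with Nextera XT, read as 75 bp single ends. Such libraries keep no strand and hold no molecular identifiers. Another 26 rows, with a calendar date in place of symbol and a count, were left out.

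Counts were filtered with filterByExpr, scaled by TMM and tested for group, with no other term, by edgeR 4.0.16 (R 4.3.3; two-sided quasi-likelihood F-test), and p-values were Benjamini-Hochberg adjusted across the 14520 genes that passed. The SE is the absolute log2 change over the square root of F. DESeq2 1.42.0 and limma 3.58.1 (voom with sample weights) were alternatives. The code was tested on simulated data. Transcript lengths and coordinates are from GENCODE M21 (GRCm38), matched by symbol, with a length for 99.1% of tested genes. Exons of 7 further genes in the table overlap members: Nme7 (Atp1b1), Grin1os (Grin1), Araf (Syn1), Timp4 (Syn2) and Uchl1os (Uchl1) on the opposite strand, and Mir770 and Mir1906-1 (Meg3) on the same strand.

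The members and lists were chosen with earlier results of these data known. All 38 members are named, and from each other neuronal list the 3 genes of smallest p, some of which are not reported here.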

Additional observations from a re-analysis of the deposited data

How the results depend on the processing

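All tested alternatives kept a positive median over the set, while the number of calls depended on the count model. The median log2 change, 1.52, was 1.43 to 1.90 under another scaling, filter or count model, 1.51 with a length and GC offset, and 1.61 with the replicate block, which called 0 genes. The labels do not say whether the numbers pair the libraries. Deviations of same-numbered libraries from their group means had correlations of 0.053, 0.030 and -0.0038, which cannot settle it. Leaving out 1 library gave 1.08 (without anti-NK1.1 1) to 1.97 (without isotype 3, with DESeq2), and leaving out anti-NK1.1 1 and 3 together gave 0.92. That last fit has 1 anti-NK1.1 library, assumed to vary like the others. Calls over all genes were 0 with edgeR, 4 with limma-voom and 83 with DESeq2, and 0 to 1212 when 1 library was left out (edgeR or DESeq2, the highest without anti-NK1.1 2 with DESeq2, where edgeR gave 129). Calls among members were 8 with DESeq2, 0 with limma-voom, and 0 to 15 when 1 library was left out. Leaving out single libraries with DESeq2 was chosen after seeing the data. Of 766 values of single members under alternatives, 9 changed sign, none of them called. Without anti-NK1.1 1 and 3 these were Rbfox3 (-0.064), Gad1 (-1.63) and Gad2 (-6.48, a fitted value set by the prior count, since Gad2 had 0 counts in the 1 library left). Without anti-NK1.1 1, Gad1 had -0.045 (-0.014 with DESeq2), without isotype 2 Nefl had -0.024 (-0.019), and without isotype 3 Vamp2 had -0.035 (-0.011). The highest value of these 3 genes with 1 library left out (DESeq2) was 3.37 for Gad1 and 1.94 for Nefl, both without isotype 3, and 0.36 for Vamp2, without isotype 1. The cause of these shifts was not tested. The GABA genes and Slc17a6 had 3 counts or fewer in at least 1 library.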
